A study of Mus musculus with 4 samples.

Results

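The 10 genes described here carry heme and iron through macrophages: Slc48a1, Hmox1, Blvra and Blvrb of heme recovery and breakdown, Fth1 and Ftl1 of iron storage, Slc40a1 of iron export, Tfrc and Trf of transferrin-bound uptake, and Slc11a1 of phagosomal metal transport. They were taken by symbol from the feature list of the deposited tables, where each symbol matched 1 of 31053 genes. The list itself was drawn up with earlier results of these data known. Droplet-based single-cell libraries had been made from EGFP+ Ly6G- cells sorted from hearts of CSF1R-EGFP mice, in which the mouse Csf1r promoter drives the EGFP reporter. This reporter was carried by both groups, and the labels give no other allele. The baseline group was 1 library of cells pooled from 3 hearts without surgery. The infarct group was 3 libraries, each of 1 heart, taken 7 days after permanent ligation of the left coronary artery, with the remote zone removed. Mice were 12 to 16 weeks old. Since the baseline was 1 library, infarct and baseline were set side by side with no test, and tests were made only between cell types of the 3 infarct libraries.

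Macrophages that engulf red cells and dying cardiac cells release heme into the phagosome. HRG1, the product of Slc48a1, moves this heme to the cytosol, where heme oxygenase 1 (Hmox1) opens the ring to give iron, carbon monoxide and biliverdin. The freed iron is stored in ferritin, a shell of heavy (Fth1) and light (Ftl1) chains, or leaves the cell through ferroportin (Slc40a1), while iron on transferrin (Trf) enters through transferrin receptor 1 (Tfrc). Iron regulatory proteins bind hairpins in several of these mRNAs when iron is low, which blocks translation where the hairpin lies before the coding sequence and steadies the mRNA where it lies after it.

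These hairpins, the iron-responsive elements, are shown because they link 4 of the 10 genes and differ in their place in the mRNA. Transcripts of the GENCODE annotation of GRCm38 were searched for a C, a stem strand of 5 bases, the loop CAGTGN and 5 bases that pair with that strand, with G-T pairs allowed. Capitals mark the C and the loop, and each line runs 5′ to 3′. In Fth1, Ftl1 and Slc40a1 the match lay in the 5′ UTR, and in Tfrc there were 4 matches, all in the 3′ UTR.
Fth1 5′ UTR, chr19:9982732-9982761, plus strand: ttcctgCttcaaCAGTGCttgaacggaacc
Ftl1 5′ UTR, chr7:45459778-45459807, minus strand: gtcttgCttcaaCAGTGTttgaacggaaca
Slc40a1 5′ UTR, chr1:45925464-45925493, minus strand: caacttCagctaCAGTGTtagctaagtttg
Tfrc 3′ UTR, chr16:32631219-32631248, plus strand: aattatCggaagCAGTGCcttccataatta
Tfrc 3′ UTR, chr16:32631598-32631627, plus strand: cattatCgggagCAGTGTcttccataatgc
Tfrc 3′ UTR, chr16:32631663-32631692, plus strand: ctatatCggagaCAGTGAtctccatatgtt
Tfrc 3′ UTR, chr16:32631710-32631739, plus strand: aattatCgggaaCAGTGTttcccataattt

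Of 21901 protein-coding genes, 31 (0.142%) held a match in a 5′ UTR and 129 (0.589%) in a 3′ UTR. The UTRs of the other 6 genes held no match to these letters. All values that follow are of mRNA, so neither translation nor iron was measured.

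The cell filter kept 10117 to 10782 cells per library, with medians of 6398.5 UMIs per cell at baseline and 8469.5 to 8556.5 in the infarcts. Cells were placed in types by counts of marker genes, none of them among the 10, and the gated myeloid cells numbered 8723 at baseline and 9083, 9936 and 9114 in infarct replicates 1, 2 and 3. Csf1r stood at 763 to 1101 CPM in these cells and Ly6g at no more than 0.0378 CPM, as the sort would leave. Resident-like macrophages (Lyve1, Folr2, Timd4 and others) were 2905 cells at baseline and 126 to 143 per infarct. Reparative-like cells with at least 2 Gpnmb UMIs (Gpnmb+) were 68 at baseline and 1011 to 1222 per infarct, and reparative-like cells with fewer (Gpnmb-) were 62 and 1842 to 2956. Macrophages high in Saa3 and Arg1 numbered 1115, 105 and 657 in infarct replicates 1, 2 and 3 against 10 at baseline, so infarct replicate 2 stood apart in that type. Pairs of libraries shared 26 to 34 cell barcodes.

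Across all gated myeloid cells, both ferritin chains were at least 2-fold higher in the infarcts and transferrin receptor 1 was at least 2-fold lower. Levels are given in CPM, the summed UMIs scaled to the same total in each library without mitochondrial genes, and log2 ratios set the infarct mean against baseline. Fth1 stood at 6211 CPM (95% interval 6191 to 6231) at baseline, where the interval is exact Poisson and covers counting error only. It reached 14418, 16493 and 16145 CPM in infarct replicates 1, 2 and 3, a log2 ratio of 1.34. Ftl1 stood at 5699 CPM at baseline and at 11156, 12099 and 11288 CPM in the infarcts, a log2 ratio of 1.01. Every infarct library was thus above baseline for both chains. Together the 2 mRNAs made up 1.19% of the baseline UMIs and 2.56%, 2.86% and 2.74% in the infarct replicates. Tfrc was at 19.5 CPM (95% interval 18.4 to 20.6) at baseline and 7.96, 7.57 and 8.44 CPM in the infarcts, a log2 ratio of -1.29, with the 3 infarct libraries close together and all below baseline.

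**Figure D1:**
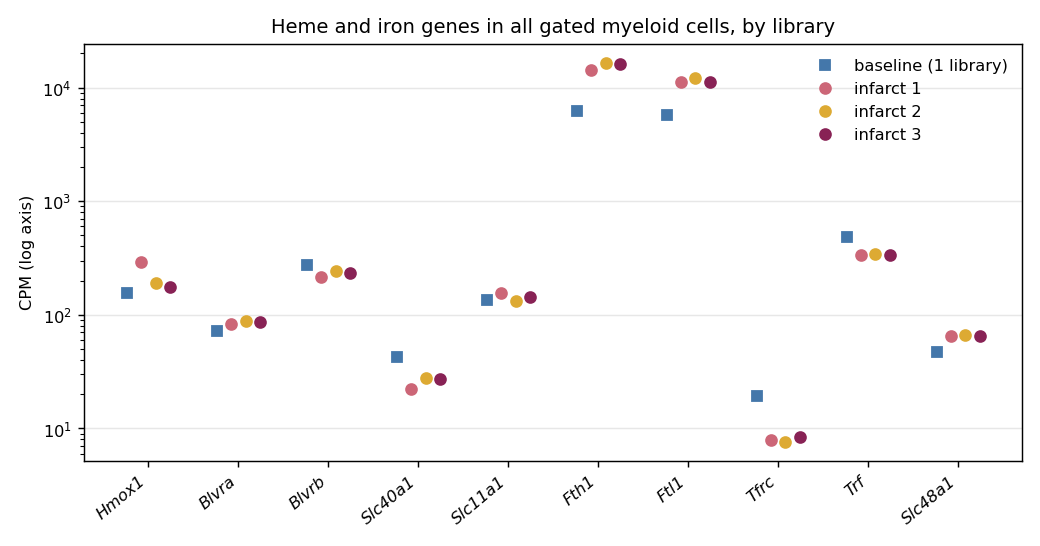
Level of each of the 10 genes in all gated myeloid cells, in CPM on a log axis, with 1 point per library (1 baseline library and 3 infarct libraries). Fth1 and Ftl1 lie highest and well apart from baseline, Tfrc lies lowest and below baseline, and the infarct points of Hmox1 spread from 178 to 293 CPM.

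Hmox1, which encodes the inducible enzyme of heme breakdown, was at 156 CPM (95% interval 153 to 159.6) at baseline and at 293, 189.9 and 178 CPM in infarct replicates 1, 2 and 3. All 3 were above baseline, but replicate 1 lay far above the other two, and the log2 ratio of 0.49 did not reach 2-fold. The heme importer Slc48a1 rested at 46.6 CPM and 65.5, 66.4 and 65.6 CPM, a log2 ratio of 0.50 with almost no spread among the infarcts. The iron exporter Slc40a1 was lower, 43.0 CPM against 22.4, 28.0 and 27.4 CPM (-0.73 on the log2 scale). Trf, the gene of the iron carrier transferrin, was also lower, 479.6 CPM against 337, 346 and 339 CPM (-0.49). The infarct libraries did not overlap baseline in either. The biliverdin reductases, which turn biliverdin to bilirubin, differed less. Blvra was at 72.0 CPM against 85.7 ± 2.12 (SD, n = 3), and Blvrb, which also reduces flavins, was at 275 against 231 ± 14.8, where TMM scaling turned the sign of the log2 ratio from -0.25 to 0.02. Slc11a1, the gene of a phagosomal pump for iron and manganese whose function in these mice was not measured, was at 135 CPM against 155, 132 and 145 CPM, on both sides of baseline.

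By the rule of a 2-fold difference with every infarct library on the same side, 2 of the 10 genes were higher and 1 was lower. Of 8219 genes at 10 CPM or more in either group, 2.38% were higher and 7.35% lower by that rule. The median log2 ratio was 0.17 over the 10 genes and -0.22 over the 8219, and TMM scaling moved the latter to 0.07. Ftl1 was close to the 2-fold limit: without infarct replicate 2 its log2 ratio was 0.98, which leaves 2 genes. In the gated myeloid cells the summed level of 10 immediate early and heat shock genes, which rise during tissue dissociation, was 9542 CPM at baseline and 6295 to 7061 CPM in the infarcts, and its part in these differences was not tested. The summed level of 5 red cell genes was 4.22 CPM at baseline and 0.415 to 2.72 CPM in the infarcts.

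The mix of cell types differed between the groups, and ferritin levels differed between types, so the ratios were also computed with the mix or the type levels held. With the type levels of each library weighted to the baseline mix, the log2 ratio was 0.86 for Fth1, 0.61 for Ftl1 and -0.94 for Tfrc. With baseline levels in every type and only the mix of each library, it was 0.84, 0.79 and -0.92. None of the 3 was 2-fold under either weighting, and each kept its direction under both. The 2 weightings are not parts that add up to the measured ratio, and the cause of the differences was not tested. The baseline levels of reparative-like cells rested on 68 Gpnmb+ and 62 Gpnmb- cells. Slc40a1 was at -0.65 with the mix held and -0.11 with only the mix changed. For Slc48a1 the order was the opposite, 0.18 and 0.59, and for Trf the values were -0.36 and -0.46. The weighting with only the mix changed was added after the data were seen.

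**Figure D2:**
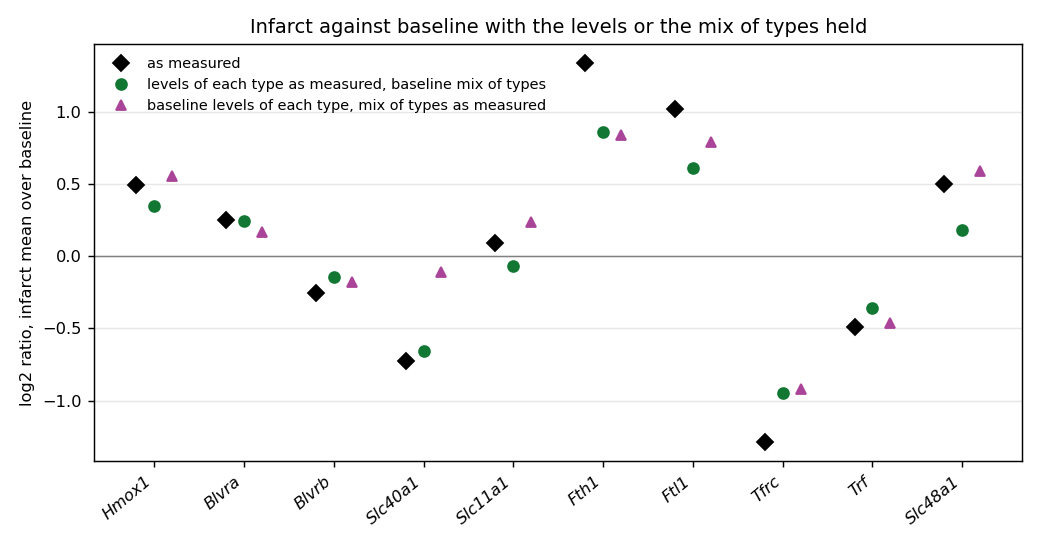
Log2 ratio of the infarct mean to baseline for the 10 genes in all gated myeloid cells, as measured, with the type levels of each library in the baseline mix of types, and with baseline levels in the mix of each library. The measured value of Fth1, 1.34, falls to 0.86 and 0.84 under the 2 weightings, while Slc40a1 stays near its measured -0.73 only with the mix held.

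Ferritin was highest in reparative-like macrophages, whatever the library. In Gpnmb+ cells the 2 chains made up 4.15% of the baseline UMIs and 4.41%, 4.01% and 4.25% in the infarcts, and in Gpnmb- cells 3.02% at baseline and 3.01% ± 0.0800 (SD, n = 3) in the infarcts. These shares were nearly alike at baseline and after infarction. In type 2 dendritic-like cells they were 0.640% of the baseline UMIs and 0.857%, 1.05% and 0.932%. Non-classical monocyte-like cells held 0.664% of the baseline UMIs and 1.24%, 1.19% and 1.23%, each infarct library being well above the baseline value. They carried macrophage markers at no more than 6.38% of the level in all gated myeloid cells. Their gate itself requires few of these markers, so that level is no separate measure of macrophage RNA in them.

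Within the infarcts, Fth1 and Ftl1 were each called in 11 of 13 types when a type was compared with all other gated myeloid cells of the same heart (edgeR's quasi-likelihood test, library as a block, Benjamini-Hochberg adjusted p under 0.01 over all genes). Fth1 stood at 23399, 21961 and 23267 CPM in Gpnmb+ cells of infarct replicates 1, 2 and 3, against 14348 ± 1372 CPM in the other cells, a log2 fold change of 0.77 ± 0.06 (SE; adjusted p = 8.6e-06). Ftl1 stood at 20668, 18158 and 19212 CPM there, against 10055 ± 876 (1.04 ± 0.07; adjusted p = 2.2e-06). The libraries did not overlap the other cells for either chain. Gpnmb- cells came next, at 16935, 17670.5 and 17600.1 CPM for Fth1, with a log2 fold change of 0.26 ± 0.04 that was lost without the block, without infarct replicate 3 and against macrophages alone. At the other end, the log2 fold change of Ftl1 was -2.13 in type 2 dendritic-like cells and -1.06 in non-classical monocyte-like cells, and that of Fth1 was -1.23 and -1.38, all held in the 13 alternatives tried.

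The chains did not follow each other in every type. In resident-like macrophages, the tissue macrophages of the healthy heart, Fth1 was at 9285, 11979 and 10017 CPM and fell below the other cells (-0.72 ± 0.05; edgeR's quasi-likelihood test, adjusted p = 6.5e-11). Ftl1 was at 9689, 10666 and 8988 CPM there, with a log2 fold change of -0.36 ± 0.05 that was lost without the block and without infarct replicate 3, and both calls were lost in 1 fit over all types. In type 2 dendritic-like cells Fth1 held 5850.1, 8048 and 6530.5 CPM, and Ftl1 only 2716, 2493 and 2790.4 CPM. Granulocyte-like cells numbered 86, 64 and 102 in infarct replicates 1, 2 and 3, after a sort that had excluded Ly6G+ cells. They were not called for either chain, with Fth1 at 9206, 19252 and 12135 CPM and infarct replicate 2 far above the others.

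Set against baseline type by type, Fth1 was higher in all 3 infarct libraries in 11 of 11 types with at least 50 cells in every library. The log2 ratio was 2-fold or more in 6 of them, from 1.00 in classical monocyte-like cells to 1.38 in proliferative-like cells. Without infarct replicate 2 it was 0.80 in classical monocyte-like cells and 0.98 in MHC-II-high macrophages. Proliferative-like cells held 4665 CPM at baseline and 12199.6, 12311 and 11921 CPM in the infarcts, and non-classical monocyte-like cells 2719 and 6185, 6614 and 6338 CPM. In both the infarct libraries lay close to each other and far from baseline. The types richest in ferritin differed least, with 20847 CPM at baseline and 22876 ± 795 in Gpnmb+ cells and 16304 and 17402 ± 406 in Gpnmb- cells. The log2 ratio in Gpnmb+ cells was 0.13, which turned to -0.09 with cells thinned to 2000 UMIs and gated again. Ftl1 was higher in all 3 infarcts in 8 of the 11 types and lower in Gpnmb- cells (log2 ratio -0.12, or 0.06 with TMM scaling), and reached 2-fold in proliferative-like cells alone (4268 CPM against 10549, 9985 and 9149 CPM). Such counts of types, here and below, share 1 baseline library, and no share over all genes is set beside them. The median log2 ratio over all genes ran from -0.27 in interferon-response-like cells to 0.12 in granulocyte-like cells.

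Free RNA can bear on these values. B-cell-like cells, which should hold little of a macrophage's ferritin excess, had Fth1 at 3546 CPM at baseline and 12342, 12344 and 13070.2 CPM in the infarcts. The infarct B-cell-like cells also carried the 7 macrophage markers at 68.9% to 82.0% of their level in gated myeloid cells, against 39.5% at baseline, with medians of 10098 to 11011.5 UMIs against 3988.5, so this gate was no clean measure of background. How far free RNA raised ferritin in the other types was not tested. With the cells of the highest doublet scores removed, the log2 ratio over all gated myeloid cells was 1.33 for Fth1 and 1.02 for Ftl1, and 21 of the 22 ferritin calls between types were kept, the exception being Ftl1 in proliferative-like cells (-0.29; edgeR, adjusted p = 0.012).

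**Figure D3:**
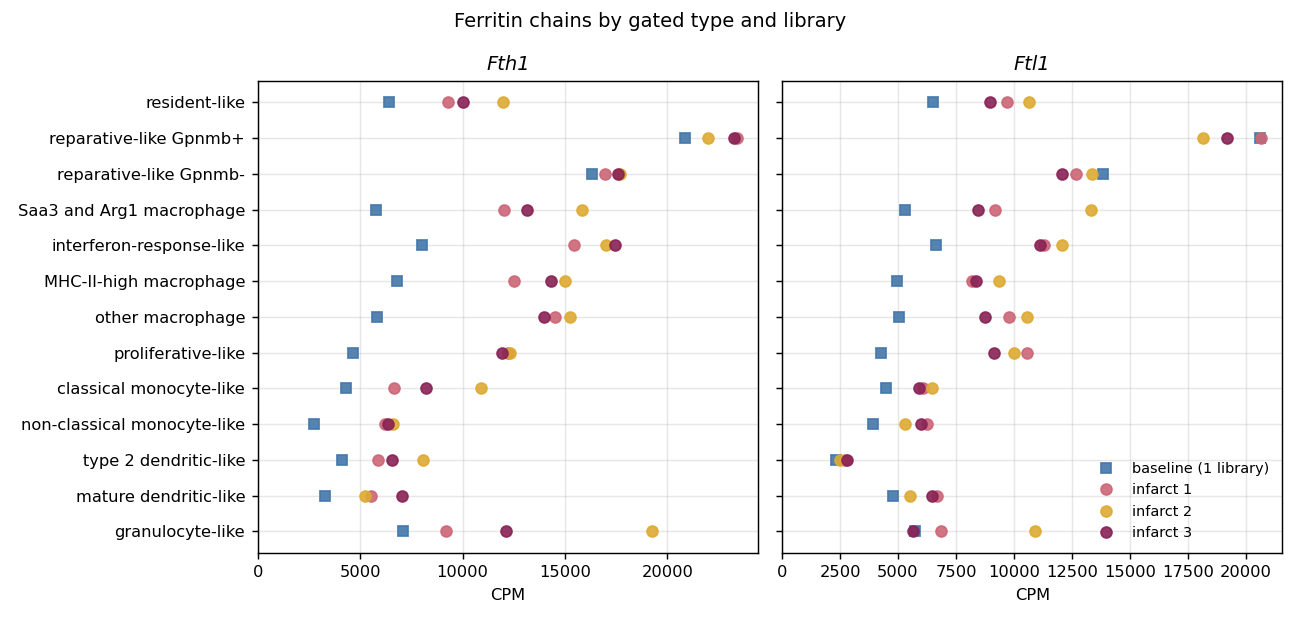
Fth1 (left) and Ftl1 (right) in CPM in each of 13 gated types, with 1 point per library. Gpnmb+ cells hold the highest values in all 4 libraries for both chains, and the baseline point of Fth1 lies left of the infarct points in each of the types shown.

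Heme oxygenase 1 was on average highest in the macrophages marked by Saa3 and Arg1 and in Gpnmb+ cells. In the Saa3 and Arg1 macrophages Hmox1 stood at 775, 627 and 316 CPM in infarct replicates 1, 2 and 3, against 192 ± 31.7 CPM in the other cells. Each library of that type lay above all 3 of the other cells, and replicate 3 was the lowest of the type. The log2 fold change was 1.44 ± 0.14 (edgeR's quasi-likelihood test, adjusted p = 5.0e-06). Gpnmb+ cells had 421, 294 and 313 CPM (0.92 ± 0.07; adjusted p = 7.8e-06, lost without the block). Dendritic cells lay at the bottom, with 23.4, 10.8 and 12.5 CPM in type 2 dendritic-like cells (-3.83) and 24.3, 15.2 and 40.7 CPM in mature dendritic-like cells, both called lower. Macrophages high in MHC-II genes were also lower, at 121, 97.3 and 67.6 CPM (-1.32), a call lost without the block and in 1 fit over all types.

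Hmox1 varied more between hearts than the other 9 genes did, with an SD of 63.6 on a mean of 220.3 CPM in all gated myeloid cells, and infarct replicate 1 was the highest of the 3 in 9 of 13 types. Resident-like macrophages showed this most, at 222 CPM at baseline and 502, 163 and 157 CPM in infarct replicates 1, 2 and 3, on both sides of baseline and with no call against the other cells. Against baseline, Hmox1 was at least 2-fold higher in 3 types. Classical monocyte-like cells went from 68.1 CPM (95% interval 61.8 to 74.8) to 294, 206 and 207 CPM (log2 ratio 1.79), and proliferative-like cells from 60.2 to 299, 161 and 188 CPM (1.84). Both sets of infarct libraries lay wholly above the baseline interval. In non-classical monocyte-like cells the baseline was 90.9 CPM (95% interval 83.1 to 99.3) and the infarcts 281, 97.9 and 247 CPM, so replicate 2 lay within the counting interval of baseline, and the log2 ratio of 1.20 was 0.92 without replicate 1. Thinning to 2000 UMIs gives each cell kept the same weight, but it drops cells with fewer UMIs, and the rest were gated again. The log2 ratio was then 0.93 in proliferative-like cells and 0.38 in non-classical monocyte-like cells, below 2-fold in both.

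Reparative-like cells went the other way for this gene, since Hmox1 was lower in all 3 infarct libraries than at baseline. Gpnmb- cells had 283 CPM (95% interval 247 to 323) at baseline and 186, 189.9 and 159 CPM in the infarcts, but 1 of the 62 baseline cells held 110 of their 225 UMIs. With cells thinned and gated again, the log2 ratio turned from -0.67 to 0.91. Gpnmb+ cells had 567 CPM (95% interval 523 to 613) and 421, 294 and 313 CPM, but 1 of the 68 baseline cells held 247 of their 626 UMIs. Single cells of very high Hmox1 were found elsewhere too: the 690.2 CPM of granulocyte-like cells in infarct replicate 2 rested on 135 of 172 UMIs in 1 of 64 cells, beside 177 and 49.7 CPM in the other two infarcts.

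The importer that feeds this enzyme, Slc48a1, was on average highest in Gpnmb+ cells, at 111, 100.2 and 91.0 CPM against 59.5 ± 1.58 CPM in the other cells (0.85 ± 0.06; edgeR's quasi-likelihood test, adjusted p = 4.0e-06). The Saa3 and Arg1 macrophages overlapped them, at 78.3, 119 and 72.3 CPM. Slc48a1 was on average lowest in mature dendritic-like cells, at 25.7, 20.3 and 20.4 CPM (-1.45), and classical monocyte-like cells, at 35.0, 37.5 and 43.2 CPM (-0.79), were low as well. The 2 biliverdin reductases were higher in Gpnmb+ cells, Blvra at 102, 113 and 111 CPM (0.51 ± 0.04; adjusted p = 1.3e-05) and Blvrb at 334, 323 and 323 CPM (0.71 ± 0.06; adjusted p = 8.8e-06). They differed in the monocytes. Blvrb was called lower in classical monocyte-like cells, at 100.3, 119.8 and 102 CPM (-1.11), while Blvra was at 81.5, 70.9 and 75.7 CPM there with no call (-0.14; adjusted p = 0.17). Blvrb was also higher in resident-like macrophages, at 299.6, 509 and 404 CPM (0.68, lost without the block). Type 2 dendritic-like cells were low in both, at 45.9, 38.4 and 40.7 CPM and 29.6, 38.4 and 37.5 CPM.

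Ferroportin divided the myeloid types sharply. Slc40a1 stood at 70.3, 62.9 and 60.2 CPM in Gpnmb+ cells of infarct replicates 1, 2 and 3, against 18.9 ± 4.23 CPM in the other cells, with no overlap. Its log2 fold change of 1.88 ± 0.13 (edgeR's quasi-likelihood test, adjusted p = 3.1e-06) was held in the 13 alternatives. Granulocyte-like cells, at 30.3 to 80.3 CPM, overlapped Gpnmb+ cells and were also called higher. That call was lost without the block, without infarct replicate 2 or 3 and in the DESeq2 test. Resident-like macrophages had 62.6, 74.4 and 40.3 CPM (1.09 ± 0.16; adjusted p = 1.0e-05), a call lost without the block, without infarct replicate 2 (adjusted p = 0.0122) and with cells thinned to 2000 UMIs. Monocytes had next to none: classical monocyte-like cells were at 1.04, 1.83 and 0.676 CPM (-4.43), and non-classical monocyte-like cells held 0 UMIs among 1601911 in the 3 infarcts. With 3 counts over the group as the floor, that is at least 14.0-fold lower than in the other cells. The Saa3 and Arg1 macrophages, high in Hmox1, were low in Slc40a1, at 11.1, 7.52 and 11.3 CPM (-1.35 ± 0.14; adjusted p = 1.0e-05). In 1 fit over all types, in which the comparison is with the other types weighted alike, 7 of its 11 calls were lost, and the sign turned in 3 of the 7, among them the Saa3 and Arg1 macrophages (0.78).

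Slc40a1 was lower in all 3 infarct libraries than at baseline in 10 of 11 types. The 3 types past 2-fold were proliferative-like cells (31.8 CPM at baseline, 7.53, 6.20 and 7.53 CPM in the infarcts), interferon-response-like cells (46.2 and 13.6, 24.7 and 19.4 CPM, a log2 ratio of -1.26 that was -0.95 with TMM scaling) and granulocyte-like cells (298 and 30.3, 80.3 and 69.6 CPM). The infarct libraries of each lay below the baseline interval. In the 77 granulocyte-like baseline cells the 71 UMIs were spread over 36 cells with at most 7 in a cell. In Gpnmb+ cells the baseline value of 96.0 CPM rested on 5 of 68 cells, 1 of which held 61 of the 106 UMIs, and with doublets removed the log2 ratio of -0.57 became 0.01. The share of Gpnmb+ cells with a UMI, with cells thinned to 2000 UMIs, was 2.94% (0.358 to 10.2%) at baseline and 7.38% ± 0.977 (SD, n = 3) in the infarcts (7.35% and 17.9% unthinned), which runs against the order of the CPM. In resident-like cells share and level ran the same way, 10.4% (9.27 to 11.5%) and 6.55% ± 3.90 (24.6% and 15.6% unthinned). B-cell-like cells had a share of 0.926% (0.0234 to 5.05%) at baseline and 0.344% ± 0.595 in the infarcts.

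**Figure D4:**
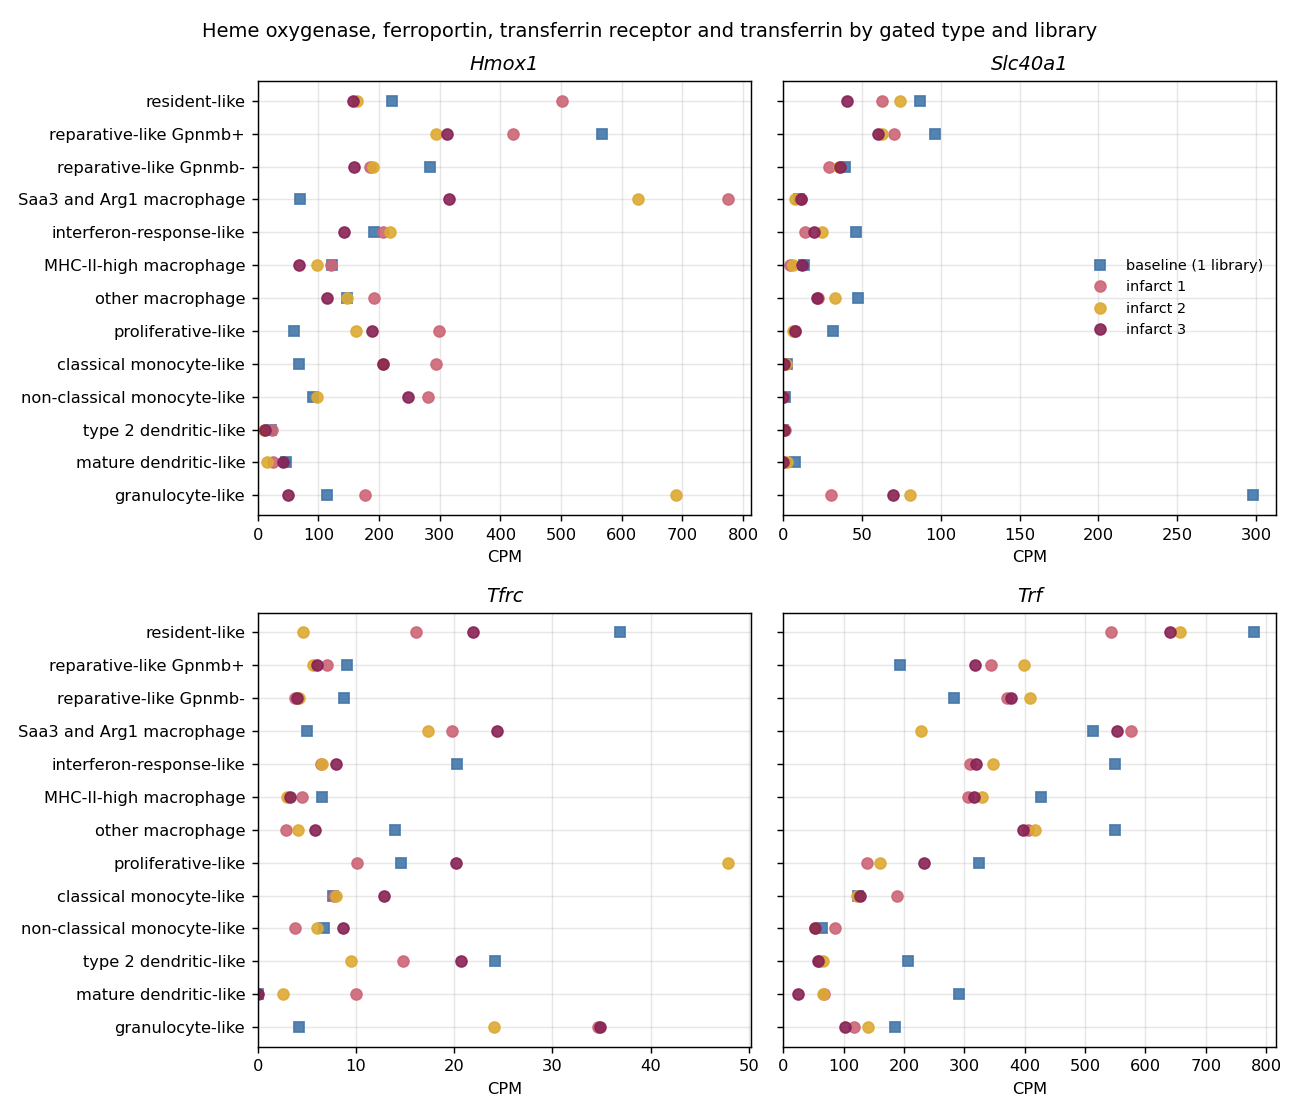
Hmox1, Slc40a1, Tfrc and Trf in CPM by gated type, with 1 point per library. Slc40a1 of the infarcts spans from under 2 CPM in classical monocyte-like cells to over 60 CPM in Gpnmb+ cells, which granulocyte-like cells overlap (30.3 to 80.3 CPM). The Hmox1 point of infarct replicate 1 lies apart from the others in resident-like cells (502 against 163 and 157 CPM).

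Transferrin receptor 1, whose mRNA carries the 3′ hairpins printed above, had its highest levels outside the reparative-like cells. Tfrc stood at 19.7, 17.3 and 24.3 CPM in the Saa3 and Arg1 macrophages, against 6.93 ± 0.551 CPM in the other cells (1.58 ± 0.15; edgeR's quasi-likelihood test, adjusted p = 3.0e-06). All 3 libraries lay above the other cells, and the call was held in the 13 alternatives. Granulocyte-like cells had 34.6, 24.1 and 34.8 CPM (1.87 ± 0.40; adjusted p = 4.1e-05), a call lost with cells thinned and in 1 fit over all types. Proliferative-like cells, which need iron for DNA synthesis, had 10.1, 47.8 and 20.1 CPM, where 1 of 307 cells held 55 of the 247 UMIs of replicate 2. That call (1.80 ± 0.43; adjusted p = 0.009) was lost without infarct replicate 3 and under 5 other alternatives. Lower levels were called in MHC-II-high macrophages, at 4.52, 3.01 and 3.31 CPM (-1.25), and in Gpnmb- cells, at 3.73, 4.17 and 3.95 CPM (-1.20). The Gpnmb- call was lost with cells thinned to 2000 UMIs (-0.24; adjusted p = 0.72) and against macrophages alone. Gpnmb+ cells, where 8 of the other 9 genes were higher, had 7.08, 5.61 and 6.07 CPM and no call (adjusted p = 0.042).

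Against baseline, Tfrc was lower in all 3 infarcts in 7 of 11 types. Over all genes the median log2 ratio was also below 0 in each of the 11 types but granulocyte-like cells. Resident-like macrophages, the type with the highest baseline level among those with more than 50 baseline cells, went from 36.9 CPM (95% interval 34.4 to 39.5) to 16.1, 4.59 and 21.9 CPM (log2 ratio -1.38, or -0.96 without infarct replicate 2). Interferon-response-like cells went from 20.3 to 6.39, 6.51 and 7.93 CPM (-1.55, or -0.51 with stricter gates), and macrophages of no narrower gate from 14.0 to 2.91, 4.07 and 5.85 CPM (-1.71). The baseline values of these last types rested on 25 and 17 UMIs. Granulocyte-like cells were higher, 34.6, 24.1 and 34.8 CPM against 1 UMI at baseline, a fold of 7.43 with a counting interval of 1.33 to 293.

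Trf was highest on average in resident-like macrophages, although the Saa3 and Arg1 macrophages of infarct replicate 1 held more. Within the infarcts it stood at 543, 657 and 641 CPM there, against 337 ± 4.82 CPM in the other cells, and the log2 fold change of 0.74 ± 0.08 (edgeR's quasi-likelihood test, adjusted p = 4.9e-08) was held in the 13 alternatives. Monocytes and dendritic cells were far lower, with 86.1, 51.9 and 51.9 CPM in non-classical monocyte-like cells (-2.52), 59.9, 65.4 and 57.6 CPM in type 2 dendritic-like cells (-2.51) and 67.1, 65.8 and 23.8 CPM in mature dendritic-like cells (-2.55). Against baseline, Trf was lower in all 3 infarcts in 7 of 11 types, most in type 2 dendritic-like cells (207 CPM (95% interval 189 to 227) and 59.9, 65.4 and 57.6 CPM, log2 ratio -1.76). It was higher in both reparative-like gates, 194 CPM and 345, 399 and 317 CPM in Gpnmb+ cells, and 283 and 371, 409 and 377 CPM in Gpnmb- cells. The 3 infarct libraries stood above baseline in each of the 2 gates.

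Slc11a1 had the fewest calls, 5 of 13. It was higher in Gpnmb+ cells, at 212, 164 and 197 CPM against 135 ± 9.25 CPM in the other cells (0.59 ± 0.05; edgeR's quasi-likelihood test, adjusted p = 1.4e-05). It was lower in proliferative-like cells at 83.7, 86.8 and 87.7 CPM (-0.83), in granulocyte-like cells at 82.2, 92.3 and 82.1 CPM (-0.91, lost without infarct replicate 3, adjusted p = 0.0118), in mature dendritic-like cells at 45.7, 30.4 and 17.0 CPM (-2.03) and in type 2 dendritic-like cells. In the latter it was nearly silent, at 7.40, 5.39 and 5.63 CPM (-4.55 ± 0.15; adjusted p = 5.9e-17), and at 14.7 CPM (95% interval 10.1 to 20.7) at baseline. The log2 ratio of -1.26 against baseline was -0.08 with cells thinned to 2000 UMIs and gated again. Non-classical monocyte-like cells, low in most of the other genes, held 182, 144 and 206 CPM and were not called (adjusted p = 0.20).

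Over the 13 types, 28 of the 130 pairs of gene and type were higher and 58 lower, where 10.4% and 11.6% of all such pairs were called higher and lower. Without the library as a block, 57 pairs were called in place of 86, and without infarct replicate 3 there were 72. Gpnmb+ cells had 8 of the 10 genes higher and 0 lower (11.6% of all genes were higher in that type), with a median log2 fold change of 0.74 over the 10 genes against -0.02 over all genes. Trf and Tfrc were the exceptions. Gpnmb- cells had 7 higher and 1 lower (6.34% and 10.5% of all genes), at a smaller median of 0.23. Each of these 7 higher calls was lost without the block, and all 8 calls were lost against macrophages alone. Resident-like macrophages had 3 higher (3.94% of all genes), Slc40a1, Trf and Blvrb, and 2 lower (5.3% of all genes), the ferritin chains. Interferon-response-like cells had 3 higher and 0 lower (8.11% of all genes higher), and all 3 calls were lost without the block and against macrophages alone. The Saa3 and Arg1 macrophages had 2 higher, Hmox1 and Tfrc, and 1 lower, Slc40a1, where 13% and 11.3% of all genes were higher and lower. Granulocyte-like cells had 2 higher and 4 lower (5.89% and 6.99% of all genes).

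Dendritic-like and monocyte-like cells and MHC-II-high macrophages had more of the 10 genes lower than higher. This also held for granulocyte-like cells, proliferative-like cells and macrophages of no narrower gate. Proliferative-like cells had 1 higher and 6 lower, beside 2116 and 1552 of 13044 genes. Macrophages of no narrower gate had 1 and 5, beside 941 and 1534 of 13095 genes. Type 2 dendritic-like cells had 9 of 10 lower (19% of all genes were lower and 15.8% higher), all but Tfrc, which was higher at 14.8, 9.44 and 20.6 CPM (0.94, lost without infarct replicate 1 or 3). Mature dendritic-like cells also had 9 lower (12.4% of all genes), with Tfrc not called. Non-classical monocyte-like cells had 7 lower (10.9% of all genes) and classical monocyte-like cells 6 (15.9%), and MHC-II-high macrophages had 8 (14.2%), of which Hmox1, Slc40a1 and Tfrc differed by more than 2-fold. Of the 8 calls in MHC-II-high macrophages, 5 were lost without the block. In 1 fit over all types 6 of the 8 were lost and the sign turned in 5, among them Slc40a1 (0.27) and Fth1 (0.36, called higher there). That fit lost 2 or 3 calls and turned no sign in each dendritic-like and monocyte-like type. It lost 5 of 7 calls in proliferative-like cells and 4 of 6 in macrophages of no narrower gate. Within types against baseline, 12 pairs were higher and 8 lower of 102 that reached 10 CPM in either group, where 4.49% and 7.5% of all pairs were. Of the 12, 6 were Fth1 and 3 Hmox1, and of the 8, 3 each were Slc40a1 and Tfrc.

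**Figure D5:**
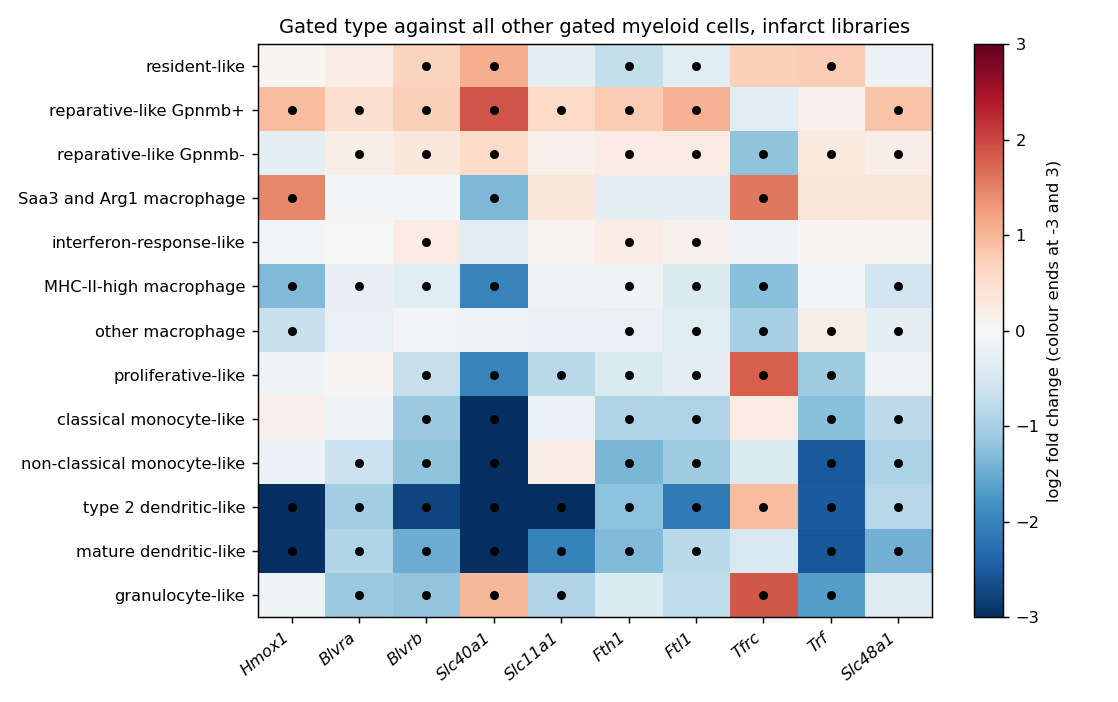
Log2 fold change of each of the 10 genes in each of 13 gated types against all other gated myeloid cells of the 3 infarct libraries (edgeR, library as a block), as colour from blue (lower) to red (higher), with a dot where the adjusted p was under 0.01. Colours end at the limits of the scale. The Gpnmb+ row shows 8 red cells with a dot. The type 2 and mature dendritic-like rows each show 9 blue cells with a dot, and Tfrc is red with a dot in type 2 dendritic-like cells.

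The rest of the pathway was read from a list of 47 other genes of heme synthesis, heme and hemoglobin uptake, iron reduction, transport, sensing and iron-sulfur assembly. Of 531 pairs of gene and type, 75 were higher and 103 lower, against 10.4% and 11.6% of all pairs, and 100 pairs were called in place of 178 without the block. The Saa3 and Arg1 macrophages had 15 of 41 tested genes higher and 7 lower, where 13% and 11.3% of all genes were. Type 2 dendritic-like cells had 4 higher and 18 lower of 40 (15.8% and 19% of all genes), and Gpnmb+ cells 10 higher and 7 lower of 41 (11.6% and 14.8%). Thus Gpnmb+ cells, where 8 of the 10 genes were higher, had a median log2 fold change of 0.13 over this list. The largest rises were of granulocyte and monocyte products. Lcn2, which binds bacterial iron carriers, reached 940.1 ± 671 CPM in granulocyte-like cells against 1.04 ± 0.159 in the other cells, a log2 fold change of 9.50 ± 0.25 (edgeR's quasi-likelihood test, adjusted p = 7.6e-307). The iron reductase gene Steap4 was at 26.0 ± 27.1 CPM there (6.01), a call lost without infarct replicate 1 (4.75; adjusted p = 0.058). Hp, the gene of haptoglobin, which binds free hemoglobin, was at 633 ± 129.6 CPM in classical monocyte-like cells against 34.8 ± 25.8 (4.48 ± 0.35; adjusted p = 1.1e-05). The falls with the largest fitted values were in types that held 0 UMIs of the gene, where the fit gives no size. With 3 counts as the floor, Cd163 was at least 7.63-fold lower and Slc39a8 at least 2.33-fold lower in non-classical monocyte-like cells, and Lcn2 at least 2.70-fold lower in mature dendritic-like cells. Lcn2 was also at 0 UMIs in resident-like cells (at least 6.68-fold lower) and type 2 dendritic-like cells (at least 11.2-fold). These 5 calls were all lost without the block, that of Slc39a8 also without any 1 infarct library and those of Lcn2 in mature dendritic-like and resident-like cells without infarct replicate 1.

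Against baseline, 0 of the 32 listed genes at 10 CPM or more were at least 2-fold higher and 3 were lower, a share near the 7.35% of all genes that were lower by that rule. Cd163, the receptor through which macrophages take up haptoglobin with hemoglobin, was at 461 CPM at baseline and 16.6, 6.40 and 19.6 CPM in the infarcts (log2 ratio -5.02). Cp, the gene of ceruloplasmin, which oxidises the iron that ferroportin exports, was at 48.0 and 9.07, 6.82 and 10.0 CPM (-2.47). Spic, a transcription factor of iron-recycling macrophages, was at 19.0 and 4.34, 9.10 and 5.30 CPM (-1.61). In resident-like cells Cd163 was at 992 CPM at baseline and 155, 224 and 222 CPM in the infarcts, the latter against 11.6 ± 6.97 CPM in the other cells (4.18 ± 0.26; edgeR's quasi-likelihood test, adjusted p = 3.0e-12) and Cp at 93.1 and 67.7, 50.5 and 65.7 CPM (2.84 ± 0.16; adjusted p = 6.6e-13), while Spic was at 27.3 and 8.46, 32.1 and 12.3 CPM, on both sides of baseline, with a call against the other cells lost without infarct replicate 2 (adjusted p = 0.12).

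Over 50 sums of a gated type in a library, the genes most like each of the 10 were named by Pearson correlation of log2(CPM + 10) among 5846 genes. These points share libraries, hearts and total counts, so the values are a description. Ftl1 was most like Ftl1-ps1 (r = 0.96), a near copy whose reads could be split with it, followed by the lysosomal protease gene Ctsd (0.94) and Trem2 (0.94), and Trem2 is in the reparative-like gate. Fth1 was also most like Ctsd (0.89), then Cebpzos (0.89) and Slc37a2 (0.87). Blvrb followed Selenop (0.94), Rnase4 (0.94) and Maf (0.92), and Trf followed Rab11fip5 (0.94), Glul (0.94) and Sesn1 (0.94). Hmox1 was most like Cndp2 (0.81), Slc11a1 (0.81) and Pon2 (0.79). Slc11a1 was most like Pla2g7 (0.89), Apobec1 (0.88) and Lyz2 (0.88), and Blvra like Lrpap1 (0.89), Fam213b (0.89) and Clta (0.85). Slc48a1 was most like Fnip2 (0.87), Sdcbp (0.85) and Nceh1 (0.84), and Slc40a1 like Fnip1 (0.83), Stxbp5 (0.82) and Entpd1 (0.82). Tfrc had the weakest likeness, to Cd164 (0.69), Zranb2 (0.66) and 2810004N23Rik (0.65). Ftl1-ps1 itself was at 37.6 CPM at baseline and 63.6 to 77.9 CPM in the infarcts.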

How the data were processed

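The deposited values were raw UMI counts that the authors had obtained from 10x Genomics libraries with Cell Ranger and mm10. The matrix headers name version 3.1.0 and the submitters' processing notes 3.0.1. The study's cell filter (500 to 40000 UMIs, more than 200 genes) was applied. Counting error is the one error that the 95% intervals (exact Poisson or binomial, scipy 1.17.1) cover.

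Cells were gated by UMI counts and numbers of different markers per list. Macrophage gates needed at least 40 UMIs of 7 macrophage markers per 10000, and monocyte and dendritic gates fewer than 20. These minimums favour cells with more UMIs, and their thresholds were set here. Counts were summed per library over a type and over all other gated myeloid cells and compared by edgeR 4.0.16 (R 4.3.3): TMM, filterByExpr, quasi-likelihood test, library as a block, Benjamini-Hochberg adjusted p under 0.01 over all genes. The pairing comes from the heart that both sums share, and the infarct replicates were separate hearts. A test needed 20 cells of the type in each infarct library, and infarct and baseline were compared within types of at least 50 cells in every library. For counts in infarct against baseline, a gene needed 10 CPM in either group. Cells were never replicates. The tests were also run on simulated counts with a fixed dispersion and no difference between hearts. That run therefore says nothing about how the tests handle differences between hearts. Other settings were DESeq2 1.42.0, no count filter, no block, each infarct library left out, stricter gates (minimums multiplied by 2), thinning to 2000 UMIs, removal of doublets and of cells over 10% mitochondrial UMIs, other comparators and other scalings. For levels and tests with thinned cells, those under 2000 UMIs were dropped and the rest were gated again on the thinned counts. The UMI minimums were scaled by 2000 over the median UMIs of the library, so they differed between libraries and types did not hold the same cells. Shares of thinned cells with a UMI kept the types gated on full counts. The automatic threshold of Scrublet (scanpy 1.11.5) called 0 to 2.45% of cells, so the highest scores were removed instead, 8.09% to 8.63% per library.

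The 10 genes, the pathway list and the tests were chosen with earlier results of these data known. Of that list the text names the 3 genes with the largest rise and the 3 with the largest fall in a type, those called against baseline, and for each of the 10 the 3 most alike of the genes whose mean was 20 CPM or more. The cells with extreme UMI counts were singled out after their values were seen. Hairpins were read from GENCODE transcripts of GRCm38. Plots were drawn with matplotlib 3.10.9.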

Additional observations from a re-analysis of the deposited data

Results flagged for a closer look

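Tfrc differed in direction between types when infarct and baseline were set side by side. Every infarct library was above baseline in granulocyte-like cells (log2 ratio 2.89) and below it in interferon-response-like cells (-1.55), macrophages of no narrower gate (-1.71) and resident-like macrophages (-1.38). The difference between the types was not tested, since the baseline is 1 library. The granulocyte-like baseline held 1 Tfrc UMI in 77 cells, and the counting interval of its fold runs from 1.33 to 293. Macrophages of no narrower gate had a median of 1590 UMIs per cell at baseline, against 3195 to 5461 in the infarcts.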

How the results depend on the processing

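Of 130 pairs of gene and type, 86 were called, and 72 to 92 under the alternatives other than the fit without a replicate block, which called 57. Without 1 infarct library the count was 72 to 84. For the pathway list the count of 178 became 100 without the replicate block and 99 with cells thinned to 2000 UMIs, and 128 to 158 without 1 infarct library. The cause of these drops was not tested. Thinning leaves smaller counts, and the thinned cells were gated again. DESeq2 called 79 pairs of the 10 genes and 141 of the list. Of 1118 alternative values of the called pairs, 975 kept direction and call, 124 kept direction alone and 19 reversed. In 1 fit over all types, which compares a type with the mean of the others, the log2 fold change of MHC-II-high macrophages turned to 0.059 for Blvra, 0.26 for Blvrb, 0.27 for Slc40a1, 0.36 for Fth1 and 0.11 for Ftl1. There it also turned to 0.78 for Slc40a1 in Saa3 and Arg1 macrophages, to 0.26 for Fth1, 0.12 for Ftl1 and 0.068 for Slc48a1 in other macrophages, to 0.0026 for Slc40a1 and 0.15 for Ftl1 in proliferative-like cells, and to 0.10 for Ftl1 in resident-like cells. With cells thinned it turned to -0.015 for Blvrb and -0.0088 for Ftl1 in interferon-response-like cells and to 0.050 for Fth1, 0.032 for Ftl1 and 0.062 for Slc48a1 in other macrophages. Against macrophages alone it turned to -0.012 for Ftl1 in interferon-response-like cells and -0.0039 for Trf in other macrophages. The count of 3 genes at least 2-fold from baseline became 0 with the baseline mix of types and 0 with baseline levels in the mix of each library, where Fth1, Ftl1 and Tfrc kept their direction. It was 2 to 3 without 1 infarct library, and 2 over all cells, gated or not. Within types the count of 20 was 18 to 25. The baseline has no replicate, and its small gates (68 Gpnmb+ and 62 Gpnmb- cells) limit every value set against it.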

Other observations

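In the infarct libraries, Slc40a1 differed between macrophage gates that overlapped in Hmox1, and these gates were not tested against each other. The Saa3 and Arg1 macrophages held Hmox1 at 573 ± 234 CPM (SD, n = 3) and Slc40a1 at 9.98 ± 2.13, while Gpnmb+ cells held 343 ± 68.4 and 64.5 ± 5.24. Single libraries ran from 316 to 775 CPM of Hmox1 in the former and from 294 to 421 CPM in the latter. The lower Slc40a1 of the Saa3 and Arg1 macrophages turned sign in 1 fit over all types (0.78). Hmox1 was spread unevenly over cells: with cells thinned to 2000 UMIs a UMI was found in 39.2% ± 8.19 of the Saa3 and Arg1 macrophages and 21.3% ± 1.65 of Gpnmb+ cells (76.1% and 59.4% unthinned), against 2.89% ± 0.774 of type 2 dendritic-like cells (11.9% unthinned) and 10.7% ± 6.16 of B-cell-like cells (34.4% unthinned). In Gpnmb+ cells of infarct replicates 1, 2 and 3, single cells held up to 248, 184 and 202 Hmox1 UMIs.

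Infarct replicate 2 had the fewest Saa3 and Arg1 macrophages and the highest Fth1 of the 3 in 10 of 13 types, and infarct replicate 1 the highest Slc11a1 in 8 of 13. Saa3 itself was at 1306, 61.2 and 514 CPM in the gated myeloid cells of infarct replicates 1, 2 and 3.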
